A study of Mus musculus with 7 samples.

Results

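The genes described here encode the proteins of synaptic vesicles and the SNARE proteins that fuse vesicles with their target membranes. They were taken by gene symbol from the deposited expression table: the synaptotagmins, complexins, VAMPs, SNAPs, syntaxins, syntaxin-binding proteins, SV2 proteins, synaptogyrins, synaptophysin, synapsins, Rab3 GTPases, RIM and Munc13 proteins. The rule found 77 genes among the 24346 in the table, and the rule itself uses symbols, not measured values. Of these, 68 had a mean of at least 0.5 FPKM (fragments scaled to the length of the transcript and to the number of mapped fragments) over all libraries and were tested together with the other genes above that level, 14151 in all.

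RNA was sequenced from primary neurospheres, which are floating clusters grown from neural stem cells, of the hippocampus of single C57/BL6 mice that the labels give as 2 months old. The 3 Med23 CKO mice (KO_117, KO_214 and KO_218) were Nestin-CreER:Med23 flox/flox, and the 4 control mice (WT_215, WT_116, WT_213 and WT_220) were littermates that carried Med23 flox/+ or Med23 flox/flox and are labelled wild type; the sources do not say which control mouse had which genotype. Mice of both groups received tamoxifen at 200 mg/kg by oral gavage on 5 consecutive days, at 2 months by the labels, while the methods of the study place it at a younger age for the mice used for culture. The Nestin promoter drives the inducible Cre in Nestin-expressing cells, so cells that came into the culture without ever expressing it would keep Med23.

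Vesicle release at a synapse follows a set order. Rab3 GTPases and RIM proteins hold vesicles at the active zone, Munc13 and Munc18 proteins prime them, and a VAMP on the vesicle zippers with a syntaxin and a SNAP protein on the plasma membrane, until calcium bound to a synaptotagmin triggers fusion. Neurons use their own forms of each protein, while related SNAREs run membrane traffic between Golgi, endosomes, lysosomes and cell surface in nearly every cell, glia and stem cells included.

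Med23, the Mediator subunit that the floxed alleles target, was at 11.4, 10.3, 12.9 and 10.1 FPKM in the controls, WT_215 first, then WT_116, WT_213 and WT_220, against 9.97, 9.27 and 8.12 FPKM in the CKO mice KO_117, KO_214 and KO_218. Every CKO value was under every control value, but the log2 fold change of -0.26 (SE 0.18) had an unadjusted limma p of 0.175, and values per gene do not show the deleted exons separately. Between 16841 and 18113 genes were above 0 in a library, and log2(FPKM + 1) correlated between libraries with r from 0.788 to 0.979. Stem cell markers were present in every library (Sox2 from 69.4 to 194 FPKM, Nes from 61.1 to 240 FPKM), but so were oligodendrocyte markers: Cnp, a myelin enzyme, was at 43.5 FPKM in the lowest library (KO_117) and 609 FPKM in the highest (WT_116). The library of KO_214 stood apart by its summed level of 12 microglia and macrophage markers, 591 FPKM against 23.3 to 134 FPKM in the other 6, and also by those of 10 endothelial and mural markers (315 FPKM against 10.5 to 134 FPKM) and 10 astrocyte markers (1356 FPKM against 568 to 885 FPKM). In such mixed cultures a lower value may mean fewer cells of a type or less RNA per cell, and these cannot be told apart.

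The question was which of these genes differ between Med23 CKO and control neurospheres. Sv2c, Syn3 and Syt11 were lower in the CKO mice, each with an unadjusted p under 0.05, and no member was higher. None of the 68 passed at an adjusted p under 0.05 (limma on log2(FPKM + 1), Benjamini-Hochberg over 14151 genes), and none of the 14151 genes did so either, while 141 genes were lower and 71 higher at an unadjusted p under 0.05. The 3 lower members are 4.41% of those tested, and over all genes 0.996% were lower and 0.502% higher by the same criterion. In 4 members (5.88%), Sv2c, Syn3, Syt11 and Stx16, the 3 CKO values lay entirely below the 4 control values, as in 1.53% of all genes, and in 0 members entirely above, against 0.784% of all genes. The log2 fold change was below 0 in 42 of 68 members (61.8%) and in 56.2% of all genes. The median log2 fold change was -0.09 over the members and -0.03 over all genes. Without KO_117, the lower members numbered 9, only 33 of 68 log2 fold changes were below 0 and the median was 0.01. Over all genes in that fit, 410 of 14225 were lower and 362 higher. Sv2c alone was called without WT_215, where 78 of 14161 genes were lower, and without KO_218, where 71 of 14146 were. Without KO_214, 65 members were tested, 4 were lower (Cplx2, Sv2c, Syn3 and Syngr1), 47 log2 fold changes were below 0 and the median was -0.14, while 206 of 13947 genes were lower.

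**Figure D1:**
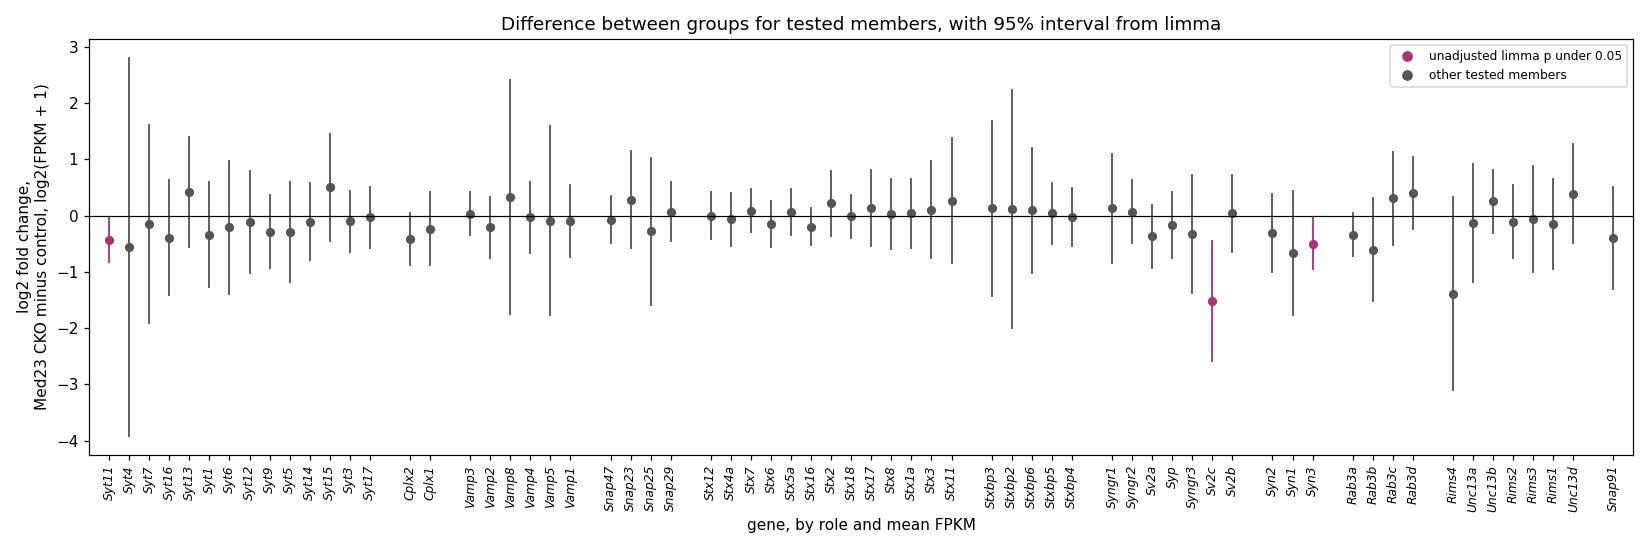
Log2 fold change (Med23 CKO minus control, on log2(FPKM + 1)) of the tested members reported here, arranged by role and, within a role, by mean FPKM; lines are 95% intervals from limma, and purple marks an unadjusted p under 0.05. Sv2c, Syn3 and Syt11 have intervals below 0, and the interval of Syt4 is the widest, from -3.91 to 2.81.

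Sv2c, one of the SV2 glycoproteins of the vesicle membrane and a receptor for botulinum neurotoxin, showed the most negative log2 fold change among the members. It was at 6.87, 1.15, 2.43 and 4.90 FPKM in the controls (WT_215, WT_116, WT_213 and WT_220) against 0.994, 0.403 and 0.228 FPKM in the CKO mice KO_117, KO_214 and KO_218. The groups did not overlap, although the lowest control (WT_116) lay close to the highest CKO value (KO_117). The control mean was 3.84 ± 2.55 FPKM (SD, n = 4), and the CKO mean 0.542 ± 0.401 FPKM (SD, n = 3). The log2 fold change was -1.51 (95% interval -2.58 to -0.44), with an unadjusted limma p of 0.0119, rank 39 of 14151 genes, and a Benjamini-Hochberg adjusted p of 0.9999. An exact two-sided permutation test over the 35 arrangements of the libraries gave p = 0.0571, where the smallest possible is 0.0286. Since the pseudocount is 1 and the Med23 CKO values lie under 1 FPKM, the log2 fold change understates the change in FPKM.

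The other SV2 genes did not pass. Sv2a, the form found in most neurons, was at 22.3, 35.9, 24.5 and 21.3 FPKM in the control mice against 15.3, 23.5 and 20.5 FPKM in the CKO mice, with overlapping groups and a log2 fold change of -0.37 (95% interval -0.93 to 0.20). Sv2b was at 0.130 to 1.33 FPKM over the 7 libraries and had a log2 fold change of 0.04 (95% interval -0.64 to 0.72).

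The Sv2c gene lies on chr13:95954594-96132577 (minus strand, GRCm38). The 250 bases before the RefSeq start of Sv2c and of Syt11 are shown because these members were lower and share no exon bases with other annotated genes. They were searched on both strands for the letters of 7 motifs: CRE (TGACGTCA), EGR (GCGTGGGCG), ETS (CCGGAAGT), the left (TTCAGCACC) and right (GGACAGCGC) arms of the RE1 element bound by the neuronal repressor REST, an E-box (CAGCTG) and an SP/KLF box (GGGGCGGGG). The RefSeq windows (GRCm38.p6, minus strand, 5′ to 3′) are chr13:96132578-96132827 for Sv2c and chr3:88772600-88772849 for Syt11, and neither holds any of these letters, so no base is in capitals.
Sv2c: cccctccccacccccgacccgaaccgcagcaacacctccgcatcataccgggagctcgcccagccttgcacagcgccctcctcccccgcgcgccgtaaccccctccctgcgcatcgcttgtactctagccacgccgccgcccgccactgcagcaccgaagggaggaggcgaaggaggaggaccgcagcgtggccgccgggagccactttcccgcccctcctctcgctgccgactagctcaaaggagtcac
Syt11: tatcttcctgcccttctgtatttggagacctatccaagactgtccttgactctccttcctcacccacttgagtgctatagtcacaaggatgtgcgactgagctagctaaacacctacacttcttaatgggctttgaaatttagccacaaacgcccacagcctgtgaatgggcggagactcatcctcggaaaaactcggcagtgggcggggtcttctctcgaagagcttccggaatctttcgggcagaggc
The Sv2c window had 70.8% G and C and 26 CpG dinucleotides, and the Syt11 window 51.2% and 9.

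Syt11, a synaptotagmin that is not itself a calcium sensor, had the highest mean level of all members (143 FPKM over the 7 libraries). It was at 175, 152, 143 and 173 FPKM in the controls (WT_215, WT_116, WT_213 and WT_220) against 140, 109 and 109 FPKM in the CKO mice KO_117, KO_214 and KO_218. The groups did not overlap, with KO_117 just below WT_213. The control mean was 161 ± 15.7 FPKM (SD, n = 4) and the CKO mean 120 ± 17.9 FPKM (SD, n = 3), for a log2 fold change of -0.43 (95% interval -0.82 to -0.04). The unadjusted limma p was 0.0344, the adjusted p 0.9999, and the exact permutation p 0.0286, the smallest that the design allows. The limma call held without WT_213 or KO_117, and was lost without any other library, with p up to 0.101 (without KO_218). In GENCODE, Syt11 lies on chr3:88744700-88775164 (minus strand), so the RefSeq start used for its window lies inside the GENCODE gene, and the bases before the GENCODE start are not shown.

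Among the synaptotagmins the changes were mixed in size but mostly below 0. Of the 17 listed, Syt11 included, 14 were tested and only Syt11 passed. In 12 of the 14 the log2 fold change was below 0, against 56.2% of all genes. The median of -0.18 moved to -0.05 (9 of 14 below 0) without KO_117. Syt4, a synaptotagmin of dense-core and other secretory vesicles, was at 52.2, 230, 105 and 9.58 FPKM in the control mice against 3.43, 136 and 116.96 FPKM in the CKO mice. It varied 67.0-fold between its lowest and highest library, the most of any member, within both groups alike, so its log2 fold change of -0.55 (SE 1.44) could not be told from 0. Syt1, the fast calcium sensor of neurons, was at 2.30, 8.21, 4.54 and 2.80 FPKM in the control mice against 2.77, 2.01 and 4.49 FPKM in the CKO mice (log2 fold change -0.34, SE 0.40). Both groups thus held low and intermediate Syt1 values, and the highest was WT_116.

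Syt7, a slower calcium sensor, showed another order, with 15.4, 5.14, 6.72 and 24.1 FPKM in the control mice against 30.6, 3.14 and 8.33 FPKM in the CKO mice. Syt13 and Syt15 had the most positive log2 fold changes of the members, at 0.42 (95% interval -0.56 to 1.40) and 0.50 (95% interval -0.44 to 1.45). Each rested on 1 Med23 CKO library: Syt13 was at 8.84 FPKM in KO_117 against 2.06 to 5.13 FPKM in control, and Syt15 at 3.01 FPKM in KO_214 against 0.149 to 0.855 FPKM in control. Syt2, Syt8 and Syt10 were below the level for testing.

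The synapsins, phosphoproteins that tether vesicles to each other in the reserve pool, all had log2 fold changes below 0, and Syn3 alone passed. Syn3, the form expressed early in neuronal development, was at 3.14, 2.84, 2.98 and 2.08 FPKM in the controls (WT_215, WT_116, WT_213 and WT_220) against 1.51, 1.82 and 1.59 FPKM in the CKO mice KO_117, KO_214 and KO_218. The groups did not overlap, and the Med23 CKO values lay close together. The means were 2.76 ± 0.467 FPKM (SD, n = 4) and 1.64 ± 0.160 FPKM (SD, n = 3), a log2 fold change of -0.50 (95% interval -0.96 to -0.05) with an unadjusted limma p of 0.0345, an adjusted p of 0.9999 and an exact permutation p of 0.0571. The limma call held without WT_220 or KO_214 and was lost without any other library, with p up to 0.0948 (without WT_215).

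Syn3 spans chr10:86055125-86498896 (minus strand), and 1733 of its exon bases (14.1%) lie opposite exons of Timp3, a metalloprotease inhibitor encoded within it. The library kit as named in the methods does not mark strand, so fragments from the shared bases cannot be assigned to either gene by strand. Timp3 itself was at 13.7, 21.6, 34.1 and 6.26 FPKM in the control mice against 3.95, 28.5 and 18.3 FPKM in the CKO mice, with overlapping groups and another order of the libraries than Syn3. Its part in the Syn3 difference was not tested.

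Syn1 was at 12.9, 6.93, 6.19 and 14.98 FPKM in the control mice against 12.5, 3.48 and 4.00 FPKM in the CKO mice, and its groups overlapped (log2 fold change -0.66, SE 0.47, unadjusted limma p 0.199). KO_117 was at the control level while the other Med23 CKO libraries lay below every control. Without KO_117 the log2 fold change was -1.16, with an unadjusted limma p of 0.0180. Syn2, the synapsin with the highest mean level, was at 13.4, 8.22, 11.0 and 16.0 FPKM in the control mice against 13.9, 8.08 and 7.23 FPKM in the CKO mice (log2 fold change -0.31, SE 0.30).

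**Figure D2:**
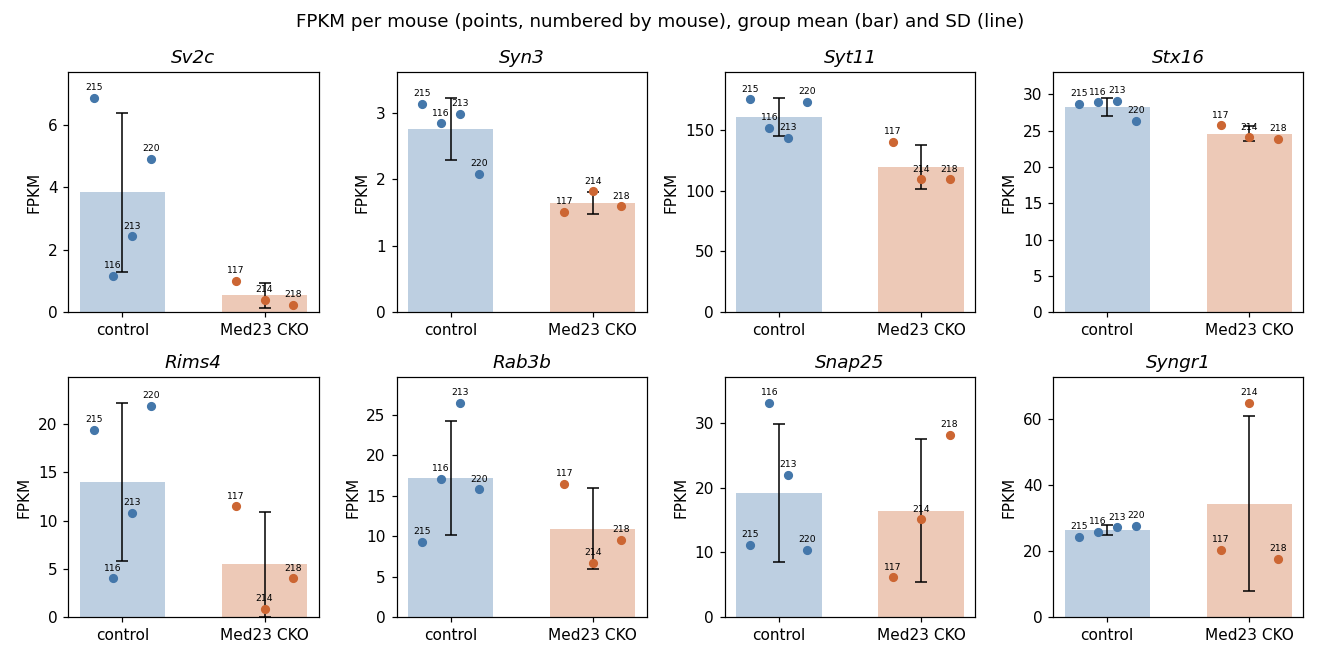
FPKM of 8 members in each of the 7 mice (points, labelled with the mouse number), with the group mean (bar, starting at 0) and SD (line) for 4 control and 3 Med23 CKO mice. Sv2c, Syn3, Syt11 and Stx16 do not overlap between groups; Rims4, Rab3b and Snap25 vary several-fold within each group, and Syngr1 is at 64.8 FPKM in KO_214 alone.

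The remaining vesicle membrane proteins overlapped between groups. Syp, which encodes synaptophysin, was at 10.6, 15.5, 11.4 and 13.6 FPKM in the control mice against 16.2, 9.41 and 9.07 FPKM in the CKO mice (log2 fold change -0.16, SE 0.25). Syngr1, a synaptogyrin, was at 24.4, 25.9, 27.3 and 27.7 FPKM in the control mice against 20.5, 64.8 and 17.8 FPKM in the CKO mice. KO_214 was thus above and the other Med23 CKO libraries below every control. The log2 fold change of 0.13 (SE 0.42) turned to -0.44 without KO_214, with an unadjusted limma p of 0.0393.

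Complexins bind the assembled SNARE complex and hold it until calcium arrives. Cplx2 was at 21.5, 22.4, 28.5 and 29.5 FPKM in the control mice against 16.6, 22.6 and 17.3 FPKM in the CKO mice. Only KO_214 reached into the control range, and the log2 fold change was -0.42 (95% interval -0.88 to 0.05, unadjusted limma p 0.0710). Cplx1 was at 6.47, 13.9, 8.33 and 9.17 FPKM in the control mice against 9.59, 6.22 and 7.42 FPKM in the CKO mice (log2 fold change -0.23, SE 0.28). Cplx3 and Cplx4, the complexins of retinal ribbon synapses, were under 0.1 FPKM in every library.

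Of the Rab3 GTPases, which tether secretory vesicles, Rab3a had the highest mean level. It was at 31.5, 34.2, 26.2 and 35.02 FPKM in the control mice against 26.5, 23.2 and 24.6 FPKM in the CKO mice. Only WT_213 and KO_117 overlapped, and the log2 fold change was -0.34 (95% interval -0.72 to 0.05, unadjusted limma p 0.0765). Rab3b was at 9.32, 17.1, 26.4 and 15.8 FPKM in the control mice against 16.5, 6.72 and 9.60 FPKM in the CKO mice (log2 fold change -0.60, SE 0.39). Rab3d, a form of non-neuronal secretory cells, was at 1.24, 1.62, 1.29 and 1.18 FPKM in the control mice against 1.33, 3.64 and 1.69 FPKM in the CKO mice (log2 fold change 0.40, SE 0.27). Its highest value was again in KO_214, and KO_117 lay within the control range.

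At the active zone, Rims4 had the highest mean level of the RIM and Munc13 genes. Rims4, a short RIM protein, was at 19.4, 4.05, 10.8 and 21.8 FPKM in the control mice against 11.5, 0.901 and 4.05 FPKM in the CKO mice. Its log2 fold change of -1.39 was the second most negative of the members after Sv2c, but the groups overlapped widely (95% interval -3.11 to 0.33, unadjusted limma p 0.0989). It passed at an unadjusted p of 0.0188 without KO_117, where the log2 fold change was -2.06, and at 0.0326 without WT_116, where it was -1.84. Rims1, a scaffold of the active zone, was at 2.83, 0.484, 1.22 and 1.87 FPKM in the control mice against 1.25, 0.844 and 1.63 FPKM in the CKO mice (log2 fold change -0.14, SE 0.34), and turned to 0.07 without WT_215.

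Unc13a, the main vesicle-priming Munc13 of excitatory neurons, was at 3.10, 3.57, 2.96 and 6.31 FPKM in the control mice against 8.35, 2.06 and 2.01 FPKM in the CKO mice. KO_117 was above and the other Med23 CKO libraries below every control, and the log2 fold change was -0.13 (SE 0.45). Unc13d, the Munc13 of blood cell granules, was at 0.355, 0.485, 0.847 and 0.231 FPKM in the control mice against 0.271, 2.62 and 0.538 FPKM in the CKO mice (log2 fold change 0.39, SE 0.38), so that KO_214 alone lay above the control range. Snap91, which encodes the clathrin adaptor AP180 and is no SNARE, was at 30.0, 17.7, 22.1 and 27.9 FPKM in the control mice against 32.7, 9.80 and 17.6 FPKM in the CKO mice (log2 fold change -0.40, SE 0.39). Without KO_117 it was at -0.82 and without KO_214 at 0.01.

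On the target membrane, neurons use Snap25 with a syntaxin of the plasma membrane such as Stx1a. Snap25 was at 11.2, 33.0, 22.0 and 10.4 FPKM in the control mice against 6.19, 15.1 and 28.1 FPKM in the CKO mice. Both groups spanned a several-fold range, and the log2 fold change was -0.28 (SE 0.56). Stx1a was at 4.29, 7.75, 5.21 and 4.91 FPKM in the control mice against 6.54, 6.70 and 3.99 FPKM in the CKO mice, with a log2 fold change of 0.04 (SE 0.26), the only one above 0 among the 14 neuronal forms listed.

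Vamp2, the main vesicle SNARE of neurons, was at 54.0, 47.9, 42.6 and 59.6 FPKM in the control mice against 60.7, 39.5 and 34.7 FPKM in the CKO mice (log2 fold change -0.21, SE 0.23). KO_117 was above and the other Med23 CKO libraries below every control.

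The 14 neuronal forms for release (among them Syt1, Snap25, Vamp2, Stx1a, Syp, Syn1, Sv2a, Rab3a, Cplx1, Cplx2, Rims1 and Unc13a) were all tested, and none passed at an unadjusted p under 0.05. Their log2 fold change was below 0 in 13 of 14, against 56.2% of all genes, with a median of -0.26 beside -0.03 over all genes. The count was between 11 and 13 with any 1 library left out, and the median lay at -0.14 without KO_214 and at -0.38 without KO_117. Their summed level was 225 to 285 FPKM in the control mice against 254, 181 and 185 FPKM in KO_117, KO_214 and KO_218, so only KO_117 lay in the control range. The 14 genes were measured in the same 7 libraries and are not replicates, so their shared direction is a description and not a test.

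The SNAREs of general membrane traffic were mixed in direction. Of 18 listed, 17 were tested, 6 had a log2 fold change below 0 and 11 above 0, none passed, and the median was 0.04. That balance moved with single libraries: 2 were below 0 without KO_117 and 12 without KO_214 or WT_220. They also varied less between mice, with a median SD over the control libraries of 0.20 on the log2 scale against 0.41 for the 14 neuronal forms. Over all genes tested this median was 0.31. The 2 lists also differed in level, with a median of the mean levels of 24.1 FPKM against 13.3 FPKM for the neuronal forms. Summed, the traffic SNAREs reached 446 to 570 FPKM in the control mice against 438 to 610 FPKM in the CKO mice.

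Stx16, a syntaxin of the trans-Golgi network, was at 28.7, 28.9, 29.1 and 26.4 FPKM in the controls (WT_215, WT_116, WT_213 and WT_220) against 25.7, 24.1 and 23.9 FPKM in the CKO mice KO_117, KO_214 and KO_218. The groups did not overlap, but the difference was small, and Stx16 had the narrowest range of all tested members, 1.22-fold between its lowest and highest library. The log2 fold change was -0.19 (95% interval -0.52 to 0.13), with an unadjusted limma p of 0.205 and an exact permutation p of 0.0571. It lies on chr2:174076308-174099771 (plus strand).

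The traffic SNAREs were among the most abundant members. Vamp3, the vesicle SNARE of recycling endosomes, was at 82.5, 89.0, 82.3 and 69.4 FPKM in the control mice against 74.0, 79.3 and 95.8 FPKM in the CKO mice (log2 fold change 0.04, SE 0.16). Stx12, an endosomal syntaxin, was at 77.1, 87.8, 85.3 and 67.3 FPKM in the control mice against 78.4, 67.2 and 94.1 FPKM in the CKO mice (log2 fold change 0.00, 95% interval -0.42 to 0.42). The groups overlapped in each gene. Snap47 was at 39.3, 48.2, 45.8 and 43.5 FPKM in the control mice against 34.1, 50.4 and 42.9 FPKM in the CKO mice (log2 fold change -0.07, SE 0.18), and 307 of its exon bases lie opposite Jmjd4. Vamp7, a lysosomal vesicle SNARE, is listed at 0 in all 7 libraries, as are 4703 genes of the table. Its symbol was not found in the GENCODE annotation used for positions, and the reason for the 0 was not tested.

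**Figure D3:**
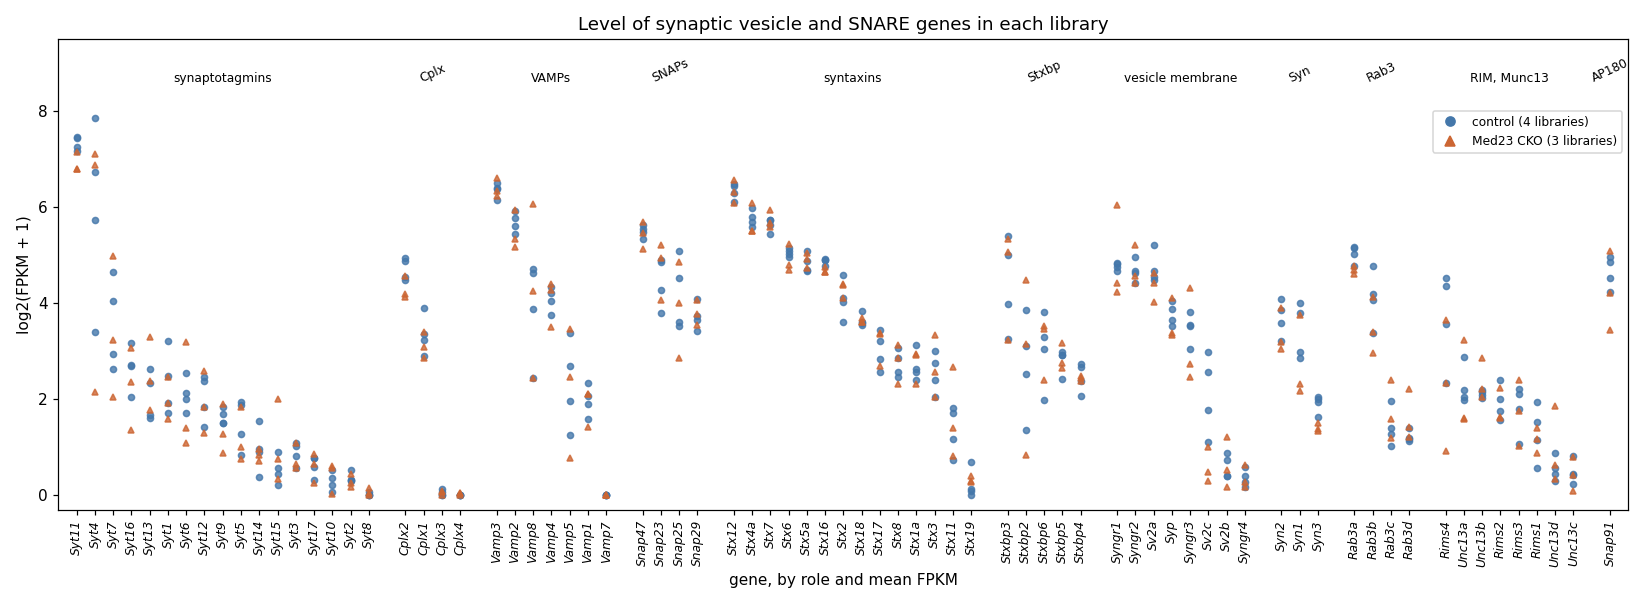
Level of the members reported here, as log2(FPKM + 1), in the 4 control (circles) and 3 Med23 CKO libraries (triangles), arranged by role and, within a role, by mean FPKM. Syt11, Syt4, Vamp3 and Stx12 are among the highest, 9 genes lie below the level for testing, and Syt4, Stxbp2, Vamp8, Sv2c and Rims4 spread widely between libraries.

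Many members varied several-fold between mice, within both groups. The ratio of the highest to the lowest library was under 2 in 21 members, from 2 to 5 in 31 and at least 5 in 16, with a median of 3.01. In 12 members (17.6%, against 26.2% of all genes) the 3 highest libraries were WT_215, WT_220 and KO_117. Among them were Rims2, Rims3, Rims4, Snap91, Syn1, Syn2, Syngr3, Syt7, Syt9 and Vamp2. In 12 others (17.6%, against 7.79% of all genes) they were WT_116, KO_214 and KO_218, among them Syt4, Snap23, Snap29, Stx17, Stxbp2, Stxbp3, Stxbp6 and Vamp4. In 10 more (14.7%, against 13.9% of all genes) they were WT_116, WT_213 and KO_214, among them Vamp8, Vamp5, Stx3, Stx11 and Sv2a.

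The cell type markers moved across the same libraries. Cspg4, the NG2 proteoglycan of oligodendrocyte progenitors, was at 43.2, 6.43, 12.6 and 51.0 FPKM in the control mice against 47.2, 12.9 and 8.19 FPKM in the CKO mice. Its 3 highest libraries were those in which Rims4, Syn1 and Syt7 were highest. Cnp was at 203, 609, 288 and 107 FPKM in the control mice against 43.5, 411 and 306 FPKM in the CKO mice, the same order at its extremes as Syt4. Of the neuron markers, Rbfox3 (NeuN) was at 0.847 to 4.23 FPKM and Neurod2 at 0 to 0.682 FPKM, low in both groups. Others were higher, such as Map2 at 24.2 to 147 FPKM and Tubb3 at 10.2 to 27.0 FPKM. Over the 15 tested neuron markers, the median of the mean levels was 13.2 FPKM. The sum of 16 neuron markers was 375 to 660 FPKM in the control mice against 661, 200 and 313 FPKM in KO_117, KO_214 and KO_218. Gap43, also present in glial progenitors, made up 37.8 to 449 FPKM of that sum. The sum of 12 oligodendrocyte lineage markers was 3087 to 5721 FPKM in the control mice against 2293 to 3540 FPKM in the CKO mice. That of 10 neural stem cell markers was 1752 to 3704 FPKM and 1675 to 3771 FPKM. The log2 fold change was below 0 in 11 of the 12 oligodendrocyte lineage markers, with a median of -0.66. It was below 0 in 8 of the 10 stem cell markers (median -0.24) and 9 of the 15 tested neuron markers (median -0.19), against 56.2% of all genes. Of the 10 astrocyte markers 7 had a log2 fold change above 0, with a median of 0.50, and their sum was 646 to 859 FPKM in the controls and 568, 1356 and 885 FPKM in KO_117, KO_214 and KO_218. Mlc1, a membrane protein of astrocytes, was the one gene of the 6 cell type lists that passed at an unadjusted p under 0.05, at 33.2 to 56.5 FPKM in the controls and 91.8, 118 and 76.0 FPKM in the CKO mice (log2 fold change 0.97, unadjusted limma p 0.0043, adjusted p 0.9999). All 10 endothelial and mural markers had a log2 fold change above 0, with a median of 0.54, and their sum was 14.5 to 134 FPKM in the controls and 10.5, 315 and 77.5 FPKM in KO_117, KO_214 and KO_218. The part of any of these in the differences between groups was not tested.

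Several members that blood cells use for granule release were highest in KO_214. This library had the highest sums of microglia and macrophage, of endothelial and mural, and of astrocyte markers. Which cells these transcripts came from was not tested. Vamp8, a SNARE of endosomes and secretory granules, was at 13.6, 25.2, 23.8 and 4.41 FPKM in the control mice against 4.38, 65.5 and 18.1 FPKM in the CKO mice. Stxbp2, the Munc18 of such granules, was at 4.78, 13.4, 7.59 and 1.55 FPKM in the control mice against 0.783, 21.4 and 7.90 FPKM in the CKO mice. Both were high in KO_214 and low in KO_117, and neither log2 fold change could be told from 0 (0.34, SE 0.89, for Vamp8 and 0.12, SE 0.90, for Stxbp2). Stx11, the syntaxin that pairs with Stxbp2, was at 0.658 to 2.52 FPKM in the control mice against 0.768, 5.33 and 1.62 FPKM in the CKO mice. Cd68 was at 259 FPKM and Trem2 at 141 FPKM in KO_214, against at most 50.3 and 33.4 FPKM in the other libraries. Csf1r (21.2 FPKM), Fcrls (9.96 FPKM) and Tmem119 (4.04 FPKM) were also highest in KO_214, while Cx3cr1 and P2ry12 were under 2 FPKM in all 7. All 11 of the 11 tested microglia and macrophage markers had a log2 fold change above 0 and none of the 12 was at 0 in every library. Their sum was 591 FPKM in KO_214. In KO_117 and KO_218 it was 24.3 and 94.0 FPKM, within the control range of 23.3 to 134 FPKM. KO_214 was the highest library for 19 members (27.9%), against 25.4% of all genes.

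**Figure D4:**
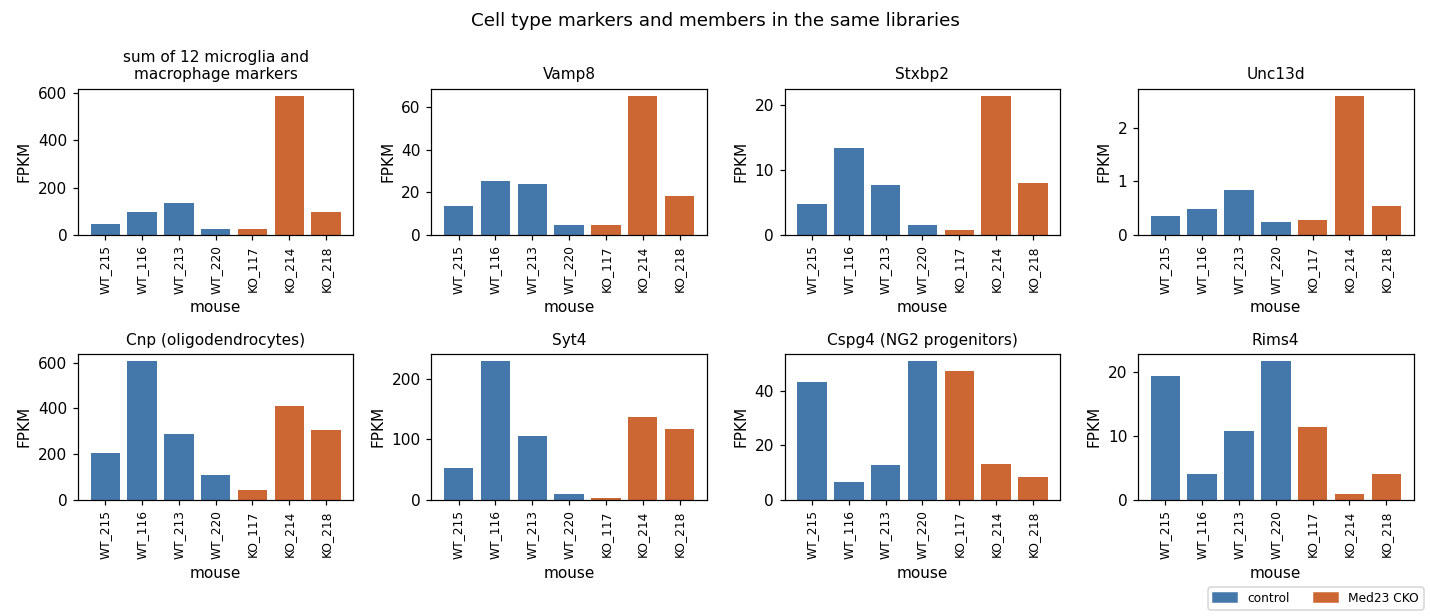
FPKM per mouse (bars, starting at 0) of cell type markers and of members in the same 7 libraries, control in blue and Med23 CKO in orange. KO_214 is highest for the summed microglia and macrophage markers (591 FPKM), Vamp8, Stxbp2 and Unc13d; WT_116 is highest for both Cnp and Syt4, and WT_220 for both Cspg4 and Rims4.

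Of 40 other presynaptic genes listed, which the rule does not cover, 35 were tested and 24 had a log2 fold change below 0, against 56.2% of all genes. The median was -0.07, beside -0.03 over all genes. None was higher at an unadjusted limma p under 0.05, as were only 0.502% of all genes. Ppfia4, a liprin of the active zone, had groups that did not overlap, at 1.14 to 1.46 FPKM in the control mice against 0.493, 1.02 and 0.772 FPKM in the CKO mice (log2 fold change -0.42, unadjusted limma p 0.0645). Over all genes, 1.53% had every CKO value below every control value and 0.784% every one above. Of 21 genes for SNARE recycling and other traffic SNAREs, all were tested and none passed, with 11 below 0 and a median of -0.01. Sec22a, a SNARE-like protein of the endoplasmic reticulum, was the single one with all Med23 CKO values above control, at 6.14, 6.15 and 7.69 FPKM against 4.41 to 6.09 FPKM (log2 fold change 0.24, unadjusted limma p 0.242).

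RefSeq promoter windows of 250 bases before and 50 after the start were found for 58 of the 77 members, 74 windows in all, and were compared with all 32851 windows. The SP/KLF letters were in 35.1% of the members' windows and 11.4% of all, and the E-box letters in 28.4% and 16.3%. The members' windows were also richer in G and C, with a median of 62.3% against 52.7%. The ETS letters were in 0 of 74 windows and 3.89% of all, the CRE letters in 2.70% and 1.79%, and the EGR letters in 1.35% and 0.612%. The left RE1 arm was in the windows of Syn1 and Unc13a (2.70%, against 0.371% of all), and the right arm in that of Unc13a (1.35%, against 0.405%). The bases before the RefSeq start of Syn1 (chrX:20920919-20921168) and Unc13a (chr8:71671758-71672007), both on the minus strand of GRCm38.p6 and written 5′ to 3′, are shown because they hold the rarer motifs. Capitals mark the left RE1 arm and then the CRE in Syn1, and the SP/KLF and then the EGR letters, both on the opposite strand, in Unc13a, whose RE1 arms lie in the bases after the start. The Syn1 window overlaps in part the GENCODE gene, which ends at 20921004. None of the marked motifs overlap each other.
Syn1: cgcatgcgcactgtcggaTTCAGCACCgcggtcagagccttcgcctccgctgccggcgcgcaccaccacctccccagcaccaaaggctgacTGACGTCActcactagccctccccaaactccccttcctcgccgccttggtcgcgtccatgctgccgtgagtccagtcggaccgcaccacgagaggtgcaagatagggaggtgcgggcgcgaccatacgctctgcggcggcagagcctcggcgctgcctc
Unc13a: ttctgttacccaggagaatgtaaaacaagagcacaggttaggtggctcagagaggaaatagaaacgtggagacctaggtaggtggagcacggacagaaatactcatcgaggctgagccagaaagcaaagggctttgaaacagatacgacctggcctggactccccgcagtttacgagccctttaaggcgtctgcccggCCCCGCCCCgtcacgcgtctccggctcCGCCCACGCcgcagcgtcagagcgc
A match is a match of letters only, and neither gene passed the test between groups.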

How the data were processed

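The authors removed adapters with cutadapt, aligned reads of libraries made with the NEBNext Ultra RNA kit, which does not mark strand, to mm10 with TopHat and deposited FPKM per gene and library, calculated with Cuffdiff; FastQC is also in the submitters' processing notes, without versions. The deposited table also holds group means and the authors' comparison (log2 fold change, test score, p and q values), none of which was used. No read counts were used, so the depth is unknown and the number of libraries, 4 control and 3 Med23 CKO from separate mice, limits the precision. The paper gives 1 control mouse fewer than the labelled control libraries and does not name those it used, so all 4 entered every control mean, SD and test.

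Genes with a mean of at least 0.5 FPKM were analysed as log2(FPKM + 1) with limma 3.58.1 (R 4.3.3; lmFit, eBayes with trend, two-sided, Benjamini-Hochberg adjustment over 14151 genes). Single genes were also tested by exact permutation over the 35 arrangements of the libraries. The test was checked on artificial data. Members named are those with p under 0.05 or groups that do not overlap, the 14 neuronal release genes, the most abundant of each role and the 5 most negative and 5 most positive log2 fold changes; Syt4, Syt7, Sv2b, Stxbp2 and Stx11 and the members given only by their library pattern were named after their values were seen. Cnp, Cspg4, Map2 and Tubb3 were picked from the marker lists likewise. Some genes that meet these rules are not reported here. The members and lists were chosen with earlier results of these data known. Alternatives changed the pseudocount, filter, normalization and model or left out a library. Gene positions and exon overlaps are from GENCODE M21 and promoters from RefSeq.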

Additional observations from a re-analysis of the deposited data

Results flagged for a closer look

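In the control libraries, Stx16 (28.7, 28.9, 29.1 and 26.4 FPKM) had WT_220 slightly below the other 3, which lay close together. The gap was 0.842 of the whole range, above Dixon's 95% critical value for 4 samples, although that range was narrow. Stxbp5, a tomosyn that binds syntaxin, was at 6.60, 6.54, 6.91 and 4.33 FPKM in control, where WT_220 was again low with a gap of 0.876 of the range, and at 5.22, 8.02 and 5.71 FPKM in Med23 CKO. This rule flags about 5% of groups by chance, and 68 members were looked at.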

How the results depend on the processing

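No paired analysis was possible because the mouse numbers are not shared between groups. Sv2c was lower at an unadjusted p under 0.05 in the fit reported and in all 16 alternatives (largest p 0.0467), and 0 members passed at an adjusted p under 0.05 in any of them. Of 29 named members, 18 kept the direction of their log2 fold change throughout. With array weights, whose estimation did not converge fully, 9 members were lower and 1 (Rab3c) higher, while 887 of 14151 genes were lower and 193 higher, and Snap25 was at 0.39, Stx1a at -0.19, Syngr1 at -0.30 and Syt1 at 0.022. With a covariate for the leading digit of the mouse numbers, 1 member was lower (Syn3 and Syt11 had p of 0.0592 and 0.0528) and Stx12 was at -0.0056. In that fit 101 of 14151 genes were lower. With 1 library left out, 1 to 9 members were lower, beside 71 to 410 of all genes tested. The log2 fold change then ranged for Rims1 from -0.39 to 0.070, Snap25 from -0.76 to 0.25 and Snap47 from -0.20 to 0.076. It ranged for Snap91 from -0.82 to 0.0058, Stx12 from -0.12 to 0.12, Stx1a from -0.065 to 0.25 and Syngr1 from -0.44 to 0.46. For Unc13a it ranged from -0.67 to 0.15, for Vamp3 from -0.071 to 0.11 and for Vamp8 from -0.57 to 1.24. The cause of these changes was not tested. Depth is unknown, so members under 0.5 FPKM were not judged.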
